A study of Drosophila melanogaster with 12 samples.

Results

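The genes described here encode subunits of the proteasome, the multi-protein machine that degrades proteins tagged with ubiquitin. Members were all genes whose current symbol begins with Prosalpha, Prosbeta, Rpn or Rpt, and 40 of the 48 such genes in the RefSeq annotation had a probe set of their own, among 11982 genes with one in all. Of these 40, 26 were standard subunits, 12 of the core particle and 14 of the regulatory particle, and 14 were paralogs whose names end in T or R, a class that in Drosophila is expressed mainly in the male germline. The 26 standard subunits and 3 paralogs were among the 9669 probe sets of the table normalized by the authors with dChip. The other 11 paralogs were found in the series matrix, the larger table of the same arrays. Prosalpha1 and its paralog Prosalpha1R share 1 probe set and were left out. Prosbeta1, Rpn9, Rpn10, Rpt1, Rpt6 and the paralog Rpt6R had no probe set listed under their symbol and were not analysed here.

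Transcripts were measured in whole Drosophila larvae on 12 one-colour Affymetrix arrays, 3 for each combination of genotype and diet. Controls carried precise excisions of the P-elements EP2449 and KG08976 in trans, and mutants, labelled HNF4 null, carried the deletions HNF4(del33) and HNF4(del17) in trans. HNF4 is a nuclear receptor that regulates genes of lipid metabolism. Larvae of both genotypes grew on normal food until late second instar and were then either kept on food or starved for 24 h on wet paper, and RNA was taken from mid-L3 animals that had molted and looked healthy. The labels name no transgene and do not say how many larvae were pooled for an array or whether triplicates came from separate cultures, so p-values measure the spread between these samples only.

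The core particle is a barrel of stacked rings. The Prosalpha proteins form the outer rings that gate its entry, and the Prosbeta proteins form the inner rings, where Prosbeta1, Prosbeta2 and Prosbeta5 cut peptide bonds. The regulatory particle caps the barrel. Its base holds the Rpt proteins, ATPases that unfold substrates, with the scaffold subunits Rpn1 and Rpn2 and the ubiquitin receptor Rpn13. Its lid holds the other Rpn proteins measured here, among them Rpn11, the metalloprotease that removes ubiquitin chains. In growing cells the subunits are made in matched amounts, and genes of both particles are widely expressed.

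Array medians were 483 to 552 in the dChip table, and every standard subunit had a mean above that range, with single values of 877 to 5732 on its linear intensity scale. Values of different probe sets are not compared as levels. The probe sets of Prosbeta5, Prosbeta7, Rpn6 and Rpn13 are of a type that can match several transcripts. Control fed replicate 3 stood apart from its group, at 9.71 on the second principal component, while replicates 1 and 2 lay at -15.7 and -11.7. The starved controls lay at -13.5 to -12.6 and the mutant arrays at -0.36 to 14.4, so this control array lay within the range of the mutants. The reason was not tested. The standard subunits of control fed replicate 3 were also high. Their median log2 deviation from the group mean was 0.20 for the core and 0.14 for the regulatory particle. Results that involve fed controls are therefore given without this array where they change. Markers of muscle (3 measured), midgut (4), fat body (4) and hemocytes (6) were detected, with summed series matrix values of at least 27120.3, 39319, 17003 and 2484, although 1 of the 4 fat body markers had a mean under the floor of 16. Those of neurons (3 measured) summed to 262 to 455 in fed and 526 to 722 in starved controls. In fed and starved mutants the sums were 310 to 320 and 491.5 to 696. Series matrix calls were 1 of 3 higher in starved controls and 2 in starved mutants, against 18.3% and 19.3% of that table. Of the 2 in the dChip table, 1 was called lower in controls and 2 in mutants. Those of the female germline (6 measured, 1 under the floor) summed to 810.5 to 856 in fed and 579 to 643.5 in starved controls. In fed and starved mutants these were 716 to 919 and 725 to 883. Of the 6 hemocyte markers, 5 were called lower with starvation in each genotype in the dChip table, against 32.1% of all probe sets in controls and 38.3% in mutants. The sum of these markers was 8037 to 13377 in fed controls, 6395 to 9457 in fed mutants, 4422 to 4717 in starved controls and 2484 to 3681 in starved mutants. The fat body sum was 26118 to 58600 in fed controls and 20390 to 55655 in fed mutants. It was 18701 to 21071 in starved controls and 17003 to 22733 in starved mutants. The part of these tissues in the results was not tested. In bulk RNA, fewer cells of a type and less RNA per cell cannot be told apart, and array values describe the share of a transcript in the RNA, not its amount per animal.

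Starved controls were compared with fed controls to describe how subunit transcripts responded to 24 h without food. All 26 standard subunits fell, with percent changes of -17.5 to -53.5 and a median log2 difference of -0.69, or 1.61-fold, against 0.03 over all 9669 probe sets. Over all probe sets 32.1% were called lower, at an adjusted p under 0.05 in limma. In all 26 the starved values lay wholly below the fed values, which held for 34.2% of all probe sets. The core and the regulatory particle fell by similar medians, log2 -0.67 and -0.76, with -0.69 in the alpha ring, -0.53 in the beta ring, -0.72 in the base and -0.80 in the lid.

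**Figure D1:**
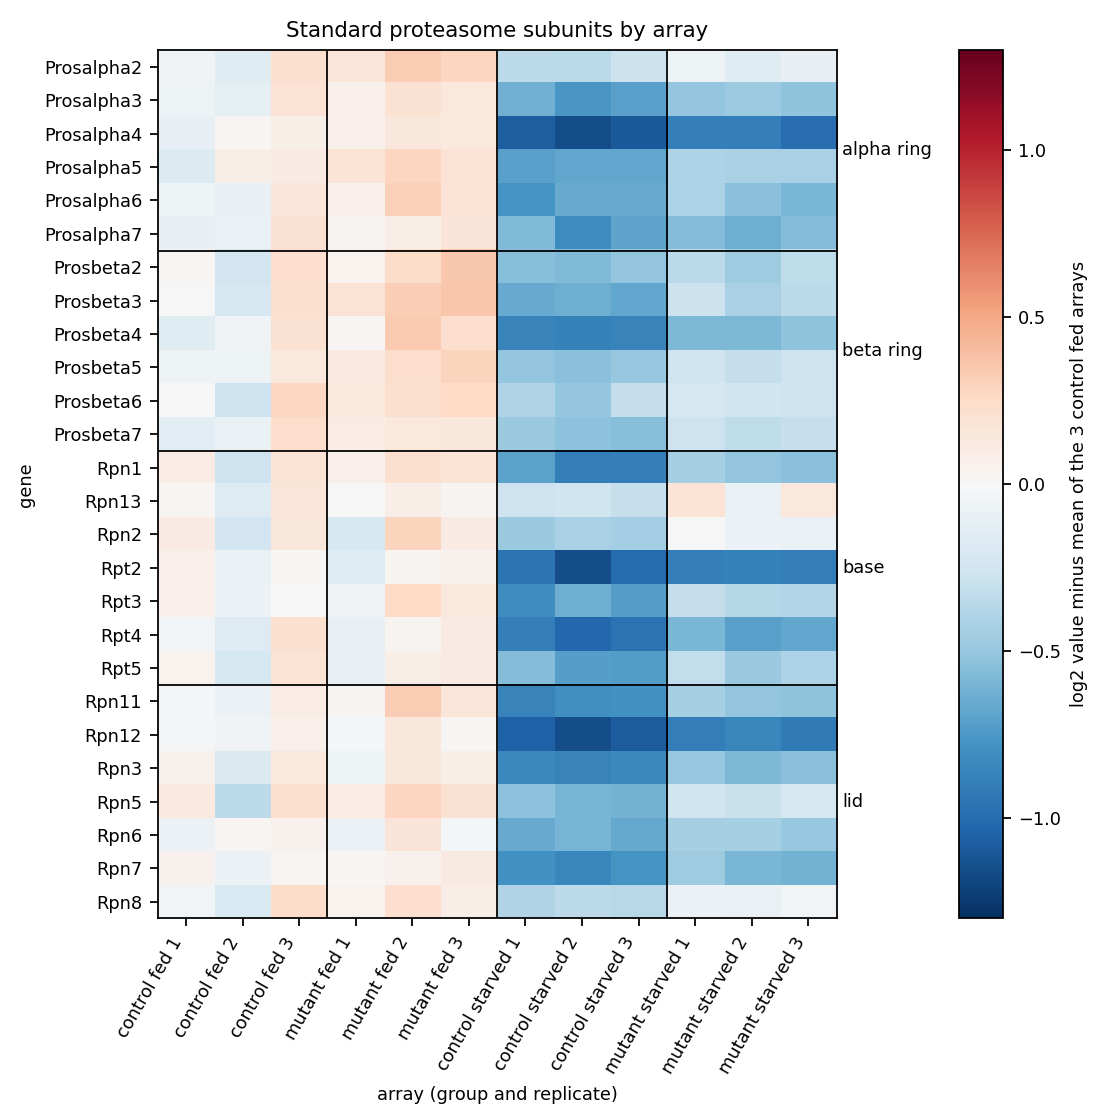
Log2 values of the 26 standard subunits (rows, grouped by part) in each of the 12 arrays (columns), minus the mean of the 3 control fed arrays for that gene. All rows are blue (lower) in the control starved arrays, most are paler blue in the mutant starved arrays, where Rpn13 is red in 2 of 3 arrays, and control fed replicate 3 is redder than the other control fed arrays in most rows.

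Of the catalytic subunits, Prosbeta5 (CG12323), which cuts after hydrophobic residues, had values of 3411, 3413 and 3914 in fed controls and 2508, 2452 and 2534 in starved controls. The groups did not overlap, and starvation changed it by log2 -0.52 ± 0.075 (adjusted p = 0.000131 in limma; here and below ± after a log2 difference is its SE with 3 arrays in each group). Prosbeta2 (CG3329), which cuts after basic residues, gave 3562, 2953 and 4084 in fed and 2391, 2358 and 2462 in starved controls. It fell by 0.54 on the log2 scale (SE 0.12, adjusted p = 0.00167), close to Prosbeta5.

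The extremes of the core were Prosalpha4 and Prosalpha2 in the alpha ring and Prosbeta4 and Prosbeta6 in the beta ring. Prosalpha4 (CG3422) had values of 2354, 2584 and 2680.1 in fed and 1210.3, 1137 and 1193 in starved controls. Every starved value was thus well below the lowest fed one, a 2.15-fold fall (log2 -1.10 ± 0.072, adjusted p = 5.83e-07). Prosalpha2 (CG5266) fell least in that ring, from 3873, 3579 and 4621 to 3165, 3144 and 3286 (log2 -0.32 ± 0.094, adjusted p = 0.0102). For the structural subunit Prosbeta4 (CG17331) the fed values were 3507, 3785 and 4465 and the starved values 2153, 2119.6 and 2139.5. The starved arrays were tightly grouped there, and the log2 difference was -0.87 ± 0.10 (adjusted p = 2.94e-05). Prosbeta6 (CG4097) had 2799.8, 2338 and 3400.3 in fed and 2149, 1988 and 2276 in starved controls, a log2 difference of -0.40 ± 0.12 (adjusted p = 0.0108). The remaining core subunits Prosalpha3, Prosalpha5, Prosalpha6, Prosalpha7, Prosbeta3 and Prosbeta7 lay between these, at log2 -0.52 to -0.70.

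In the regulatory particle, Rpn12, Rpt2 and Rpt4 fell most and Rpn13 and Rpn8 least. The lid subunit Rpn12 (CG4157) had values of 2419, 2379 and 2559 in fed and 1179.8, 1104 and 1159 in starved controls (log2 -1.10 ± 0.071, adjusted p = 5.49e-07). Those of the ATPase Rpt2 (CG5289) were 2045, 1831 and 1972 in fed and 1012, 877 and 971 in starved controls (log2 -1.03 ± 0.084, adjusted p = 2.37e-06). Both transcripts dropped by about the same factor, 2.14-fold and 2.05-fold. Rpn8 (CG3416), the inactive partner of Rpn11 in the lid, had 2769, 2472 and 3354 in fed and 2164, 2242 and 2213 in starved controls (log2 -0.37 ± 0.10, adjusted p = 0.00778). For the ubiquitin receptor Rpn13 (CG13349) the fed values were 2156, 1906 and 2385 and the starved values 1774, 1787 and 1736. This was the smallest fall of the 26 (log2 -0.28 ± 0.096, adjusted p = 0.0233), and its call was lost in the series matrix, where the log2 difference was -0.30 (adjusted p = 0.194), and without control fed replicate 3 (log2 -0.20, adjusted p = 0.086), control starved replicate 1 (-0.28, adjusted p = 0.0516) or control starved replicate 3 (-0.27, adjusted p = 0.0647). Rpn2, the scaffold to which Rpn13 binds, changed by log2 -0.45 ± 0.13. The ATPases Rpt3, Rpt4 and Rpt5 fell by log2 0.72, 0.96 and 0.67, Rpn1 by 0.83, and the lid subunits Rpn3, Rpn5, Rpn6, Rpn7 and Rpn11 by 0.85, 0.58, 0.64, 0.80 and 0.82.

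In the series matrix the fall was larger, with a median of log2 -0.89 against 0.14 over all its probe sets, and 25 of 26 subunits called lower, against 10.0% of that table. Without control fed replicate 3, 25 of 26 were called.

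Mutant larvae were compared in the same way to describe the response to starvation when HNF4 was absent. Of the 26 standard subunits 23 fell, 0 rose and 3 did not pass the test, with a median log2 difference of -0.61, against -0.04 over all probe sets, of which 38.3% were called lower. Starved values lay wholly below fed values for 24 of the 26, against 40.9% of all probe sets. All 12 core subunits fell, at log2 -0.36 to -1.04, and 11 of the 14 of the regulatory particle. The 3 that did not pass were Rpn13, Rpn2 and Rpn8.

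Rpn13 had values of 2134, 2278 and 2186 in fed mutants and 2426, 2012 and 2353 in starved mutants. These overlapped, and the log2 difference was 0.04 ± 0.096 (adjusted p = 0.734). Rpn2 (CG11888) gave 1986, 2813 and 2476 in fed and 2309, 2186 and 2162 in starved mutants, which overlapped too (log2 -0.11 ± 0.13, adjusted p = 0.439). Rpn8 had 2933, 3300.3 and 3015 in fed and 2703, 2677 and 2767 in starved mutants. Its groups did not overlap, and the difference of log2 -0.18 ± 0.10 (adjusted p = 0.122) passed the threshold with quantile normalization (-0.22, adjusted p = 0.0371), with median centring (-0.31, adjusted p = 0.00855), with array weights (-0.16, adjusted p = 0.0365) and without control fed replicate 3 (-0.18, adjusted p = 0.0401).

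At the other end, Prosalpha4 had values of 2648, 2818 and 2783 in fed and 1366, 1367 and 1279 in starved mutants (log2 -1.04 ± 0.072, adjusted p = 3.85e-07). Prosbeta4 fell from 3937, 4948 and 4534 to 2604, 2607 and 2709 (log2 -0.75 ± 0.10, adjusted p = 5.27e-05). Rpn12 fell from 2412, 2721 and 2474 to 1315, 1366 and 1292 (log2 -0.94 ± 0.071, adjusted p = 6.91e-07). These 3 had the largest fall of the alpha ring, beta ring and lid in both genotypes, and in the base it was Rpt2, at 1735, 1999 and 2023 in fed and 1048, 1060.4 and 1046 in starved mutants (log2 -0.86 ± 0.084, adjusted p = 4.48e-06). Prosalpha2 (log2 -0.36 ± 0.094, adjusted p = 0.00451) and, in the beta ring, Prosbeta7 (4589, 4713 and 4768 in fed, 3558, 3413 and 3478 in starved mutants, log2 -0.43 ± 0.090, adjusted p = 0.00122) fell least. The catalytic subunits Prosbeta2 and Prosbeta5 changed by log2 -0.60 ± 0.12 and -0.50 ± 0.075.

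**Figure D2:**
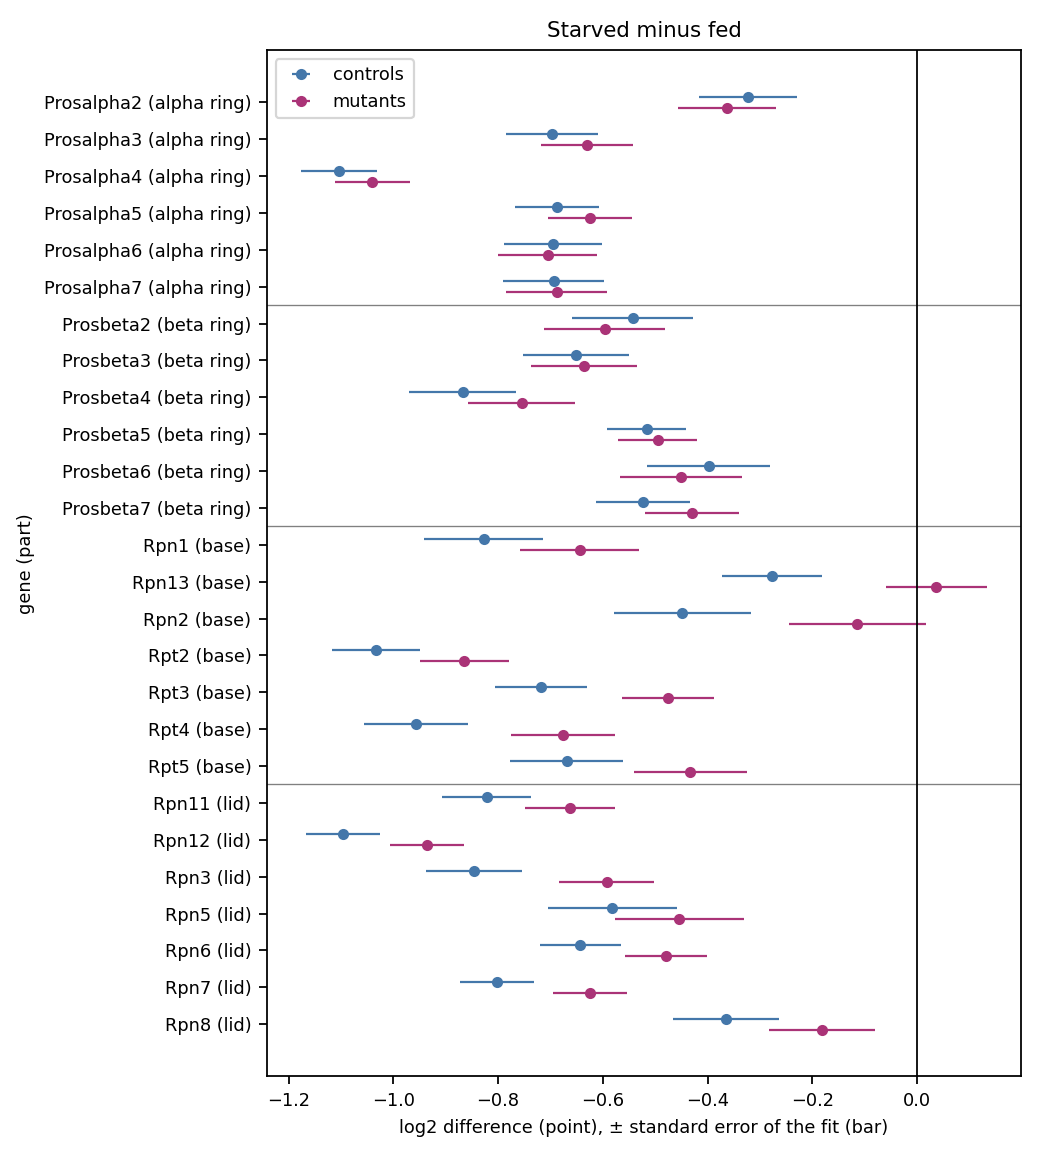
Starved minus fed log2 difference (horizontal axis) of each standard subunit (vertical axis, with its part) in controls and in mutants. Points are fitted differences and bars the standard error of the limma fit, with 3 arrays per group. In controls all points lie below 0, from -0.28 to -1.10, and in mutants the points of the base and lid lie to the right of those of the controls while those of the core mostly coincide.

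The next comparison asked whether subunit transcripts differed between genotypes after starvation. All 26 had higher means in starved mutants than in starved controls, by 7.49% to 31.6%, with a median log2 difference of 0.25 against -0.01 over all probe sets. Mutant values lay wholly above control values for 25 of the 26, Prosalpha7 being the exception, against 15.3% of all probe sets. Of the 26, 3 passed the threshold, all higher, against 3.91% of all probe sets called higher. In limma 21 had an unadjusted p under 0.05, against 1955 of the 9669 probe sets in either direction. The median was log2 0.21 in the core and 0.30 in the regulatory particle. These differences share the control starved arrays with the fall in controls above, and the mutant starved arrays with the fall in mutants.

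The 3 that rose in the dChip table belong to the regulatory particle, but in the series matrix Rpt3 alone of them was called (log2 0.53, adjusted p = 0.0249). There Rpn11 (0.42, adjusted p = 0.0677) and Rpn13 (0.41, adjusted p = 0.275) did not pass, and the core subunits Prosbeta3 (0.44, adjusted p = 0.00992) and Prosbeta5 (0.37, adjusted p = 0.038) did. Rpt3 (CG16916), an ATPase, had values of 1465, 1651 and 1556 in starved controls and 2057, 1973 and 1958 in starved mutants. The groups were separate, and the log2 difference was 0.36 ± 0.088 (adjusted p = 0.0307). The deubiquitinase Rpn11 (CG18174) gave 1543, 1619 and 1632 in controls and 2099, 1977 and 1959 in mutants, a rise of log2 0.33 ± 0.085 (adjusted p = 0.0377). Rpn13, whose probe set can match several transcripts, stood at 1774, 1787 and 1736 in controls against 2426, 2012 and 2353 in mutants (log2 0.35 ± 0.096, adjusted p = 0.0468). The mean of Rpn13 in starved mutants, 2263 ± 221 (SD, n = 3), was close to that in fed mutants, 2199 ± 72.5. Rpn2 had the largest difference but did not pass (log2 0.40 ± 0.13, adjusted p = 0.099).

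Which subunits passed depended on single arrays. The count of 3 became 0 without control starved replicate 1 or 3, mutant starved replicate 1 or 3 or mutant fed replicate 3, 1 without control starved replicate 2, and 7 and 10 without control fed replicates 2 and 3, while the median was log2 0.22 to 0.27 over the 12 removals. The call of Rpn13 ended on removal of any 1 of 9 arrays, that of Rpn11 of 7 and that of Rpt3 of 5. The count was 21 with arrays weighted by their quality, where calls over all probe sets, in either direction, rose too, from 736 to 2439. In the series matrix the count was 3, of which Rpt3 was shared, against 0.996% of that table called higher. All 26 differences were again above 0 there, with a median of 0.33.

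In fed larvae the same comparison gave 0 calls of 26 in either direction, against 0.186% of all probe sets called higher and 0.869% called lower. In limma 4 of the 26 had an unadjusted p under 0.05, against 1071 of the 9669 probe sets in either direction. The 4 were Prosalpha2, Prosalpha5, Prosbeta3 and Prosbeta5, all of the core and all with higher means in mutants, at log2 0.25, 0.21, 0.29 and 0.21 (adjusted p = 0.332, 0.345, 0.303 and 0.305). Of the 26, 25 had higher means in mutants, with a median of log2 0.12 against -0.01 over all probe sets. Mutant values lay wholly above control values for 1 of the 26, Prosalpha5, against 5.14% of all probe sets. The median was log2 0.20 in the core and 0.06 in the regulatory particle, an order that turned in the series matrix, where it was 0.10 and 0.15. Without control fed replicate 3 the median over the 26 was log2 0.22 and 2 subunits were called, and with array weights 1 was. Over all probe sets the calls in either direction were 102 in the main fit, 272 without that array and 193 with weights.

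**Figure D3:**
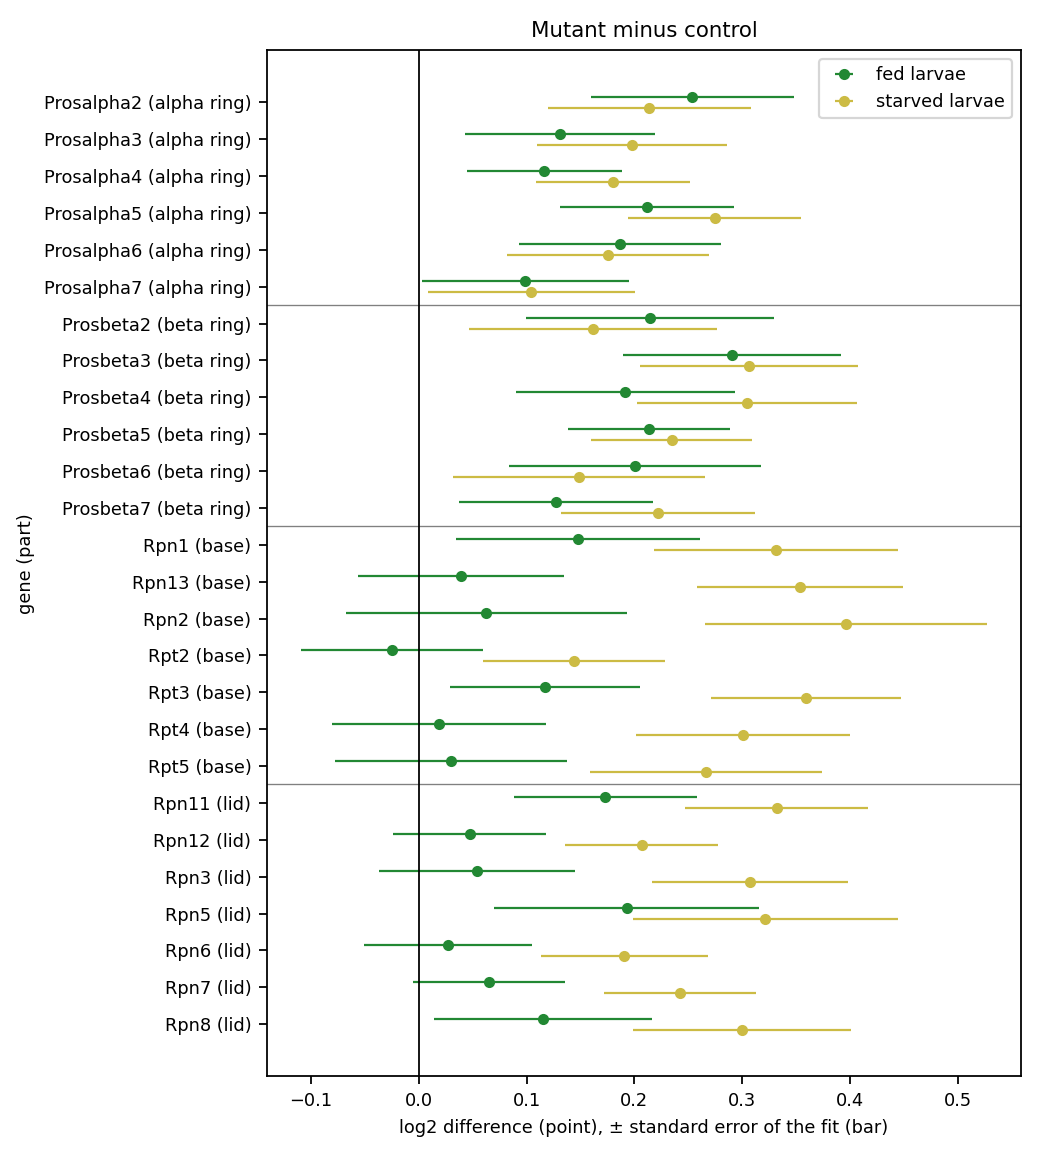
Mutant minus control log2 difference (horizontal axis) of each standard subunit (vertical axis, with its part) in fed and in starved larvae. Points are fitted differences and bars the standard error of the limma fit, with 3 arrays per group. In starved larvae all 26 points lie above 0, between 0.10 and 0.40, and the fed points of the regulatory particle, with a median of 0.06, lie closer to 0 than those of the core, with a median of 0.20, an order that turned in the series matrix (0.15 and 0.10).

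The response to starvation in mutants was set against that in controls in 1 test of the difference between the responses. It called 0 of the 26, against 2.59% of all probe sets called in either direction. In limma 1 of the 26 had an unadjusted p under 0.05, against 1693 of the 9669 probe sets. That subunit was Rpn13 (log2 0.31 ± 0.14, interval 0.02 to 0.61 at 95%, adjusted p = 0.257). All 14 estimates of the regulatory particle were above 0, with a median of log2 0.18, which was 0.15 to 0.29 over the alternatives tried, with all 14 above 0 in each. These estimates share the same arrays in every alternative, and the subunits varied together within groups. The 14 signs are therefore not separate observations. The 12 core estimates had a median of log2 0.02, which was -0.07 without control fed replicate 3 and 0.15 in the series matrix, with 3 and 10 of the 12 above 0. The regulatory particle was at 0.15 and 0.20 in the same settings, and the difference between the particles was not tested. For Prosbeta5 the 95% interval of the difference was -0.21 to 0.25, for Prosalpha4 -0.16 to 0.29 and for Rpt3 -0.03 to 0.52. At this number of arrays, differences within these intervals were not excluded for these genes.

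Factors that build, activate or work with the proteasome were read beside the subunits. Of 13 measured, 9 fell and 1 rose in starved controls, against 32.1% of all probe sets called lower and 36.1% higher, and 8 fell and 2 rose in starved mutants, against 38.3% called lower and 37.5% higher, with medians of log2 -0.35 and -0.31. Pomp, the maturation factor of the core particle, had values of 1784, 1994 and 1647 in fed and 670, 801 and 754 in starved controls. It fell 2.44-fold (log2 -1.29 ± 0.097, adjusted p = 1.49e-06), more than any of the 26 standard subunits. The proteasome-bound deubiquitinase Usp14 (log2 -0.95 ± 0.12), the unfolding ATPase TER94 (-0.86 ± 0.091), the small lid subunit Sem1 (-0.80 ± 0.10) and the assembly chaperone PSMG1 (-0.69 ± 0.089) fell as well, and the activator REG (-0.35 ± 0.14) and the deubiquitinase Uch-L5 (-0.24 ± 0.079) fell less. Rngo, a ubiquitin receptor that shuttles substrates, was the 1 that rose (log2 0.45 ± 0.088).

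PI31 is a proteasome-binding regulator needed in Drosophila sperm formation, and its probe set is of a type that can match several transcripts. Its values were 705, 689 and 721 in fed controls, 724, 713 and 739 in starved controls, 687, 686 and 693 in fed mutants and 893, 868 and 931 in starved mutants. The 3 starved mutant arrays were above the other 9. PI31 was the 1 of the 13 called in starved mutants against starved controls, and was higher (log2 0.31 ± 0.061, adjusted p = 0.0111), against 3.91% of all probe sets called higher. All 13 had higher means in starved mutants, with a median of log2 0.15. Gene by gene, the alternatives were followed for 16 subunits and paralogs only, so the PI31 call and those of the other listed genes were not checked in them. The difference between responses of PI31 was log2 0.34 ± 0.086 (adjusted p = 0.0687). In starved against fed mutants it rose by log2 0.38 ± 0.061 (adjusted p = 0.000175), and rngo, at log2 0.75 ± 0.088, was the other that rose.

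Of 5 measured genes on a list of candidate regulators, 3 rose with starvation in each genotype, against 36.1% of all probe sets called higher in controls and 37.5% in mutants. Whether they act on proteasome genes here was not tested. Cap-n-collar (cnc), the Drosophila member of the Nrf family, has a probe set of a type that can match several transcripts. It had values of 2774, 2232 and 2413 in fed and 4836, 4964 and 4664 in starved controls. In mutants the values were 2574, 2356 and 2355 in fed and 5629, 5071 and 5594 in starved larvae. Every starved array was above every fed one, by log2 0.97 ± 0.089 in controls (adjusted p = 5.14e-06) and 1.16 ± 0.089 in mutants (adjusted p = 7.52e-07). The partner of cnc, maf-S, rose by log2 1.13 ± 0.086 and 1.48 ± 0.086. The transcription factor foxo rose too (0.94 ± 0.070 and 1.29 ± 0.070). Hsf (0.14 and 0.08) and Pngl, an N-glycanase (-0.06 and 0.22), did not pass in either genotype.

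Of 9 ubiquitin genes and conjugating enzymes, 3 rose in starved controls and 5 in starved mutants (36.1% and 37.5% of all probe sets were called higher), and 0 were called lower in either by limma, with 3 and 5 at an unadjusted p under 0.05. Of the 9669 probe sets, 6924 and 7502 were under 0.05, in either direction. The polyubiquitin gene Ubi-p5E rose by log2 1.08 ± 0.13 and 1.35 ± 0.13, and the conjugating enzyme gene Ubc6 by 0.63 ± 0.089 and 0.89 ± 0.089. The COP9 signalosome and eIF3, complexes built on the same protein folds as the lid, served for comparison. Against the same 36.1% called higher and 32.1% called lower of all probe sets in controls, 2 of 6 signalosome subunits rose and 3 fell in starved controls, CSN5, the relative of Rpn11, by log2 1.18 ± 0.089, and alien by -0.58 ± 0.080. Of 13 subunits of the translation initiation factor eIF3, 12 rose and 1 fell, with a median of log2 0.59. In starved mutants 7 of the 13 rose and 1 fell, against 37.5% and 38.3% of all probe sets. In fed larvae all 13 eIF3 subunits had higher means in mutants than in controls. Their median was log2 0.22, against 0.12 for the 26 standard subunits. In starved larvae 7 of the 13 had higher means in mutants, with a median of log2 0.004, against 0.25 for the standard subunits. Between genotypes, 0 of these 9, 6, 13 and 5 genes were called in fed or in starved larvae by limma, with 1, 1, 1 and 1 at an unadjusted p under 0.05 in fed larvae and 3, 2, 0 and 1 in starved larvae. Over all probe sets 0.186% were called higher and 0.869% lower in fed larvae, and 3.91% and 3.70% in starved larvae. Of the 9669 probe sets, 1071 in fed and 1955 in starved larvae had an unadjusted p under 0.05 in limma.

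**Figure D4:**
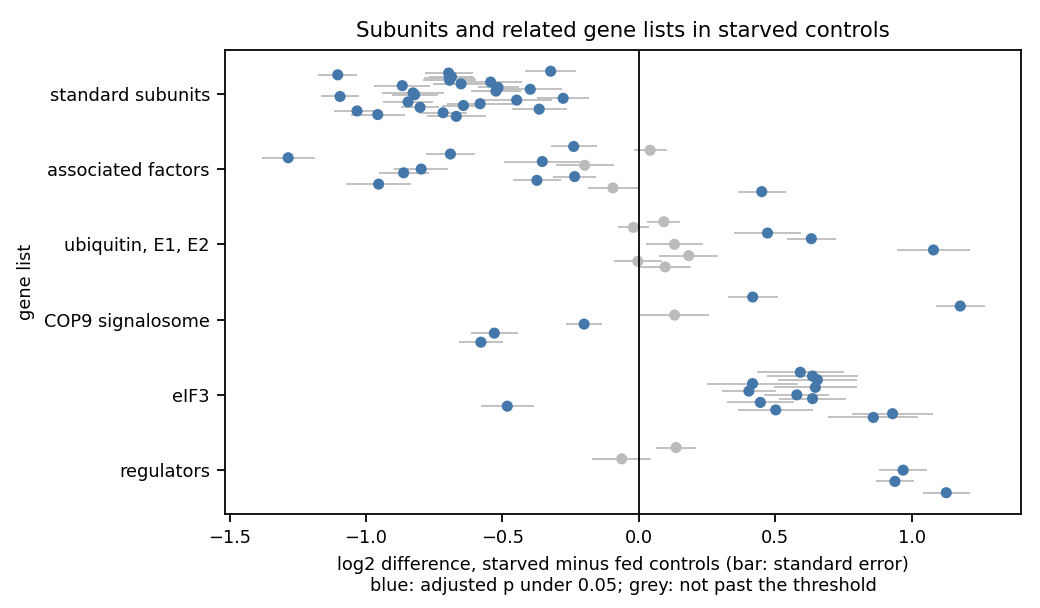
Starved minus fed log2 difference in controls (horizontal axis) for the 26 standard subunits and 5 related gene lists (vertical axis). Each point is a gene, blue where its adjusted p was under 0.05, with the standard error as a bar. The subunits all lie below 0, most associated factors lie below 0, and eIF3 lies above 0 except for 1 gene.

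The germline paralogs replace standard subunits during sperm formation in Drosophila. Of the 14 measured, the 3 in the dChip table were dim, with values of 163 to 398, all under the array medians. Prosalpha6T (CG5648), the testis form of Prosalpha6, had values of 283, 319.7 and 344 in fed controls, 329, 354 and 359.9 in fed mutants, 313, 266 and 311 in starved controls and 188, 239 and 191 in starved mutants. The starved mutants were below every other array. The fall with starvation in mutants was log2 -0.76 ± 0.11 (adjusted p = 0.000101), and starved mutants were lower than starved controls (log2 -0.53 ± 0.11, adjusted p = 0.0162), against 3.70% of all probe sets called lower. Starved against fed controls gave log2 -0.09 ± 0.11 (adjusted p = 0.494), and the difference between the responses was -0.67 ± 0.16 (adjusted p = 0.0523), which passed the threshold without control fed replicate 3 (-0.74, adjusted p = 0.0347) or mutant starved replicate 2 (-0.79, adjusted p = 0.0171), with median centring (-0.71, adjusted p = 0.042) and with array weights (-0.83, adjusted p = 0.00404). The series matrix did not show either difference, at log2 0.06 and -0.06 (both with an adjusted p of 1), and the call between starved genotypes was lost without control starved replicate 1 (log2 -0.49, adjusted p = 0.0773) or 3 (-0.50, adjusted p = 0.0743) and without mutant starved replicate 1 (-0.47, adjusted p = 0.0735) or 3 (-0.48, adjusted p = 0.0744).

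The ATPase paralogs rose with starvation in controls, opposite to the standard ATPases. Rpt3R (CG9475) had values of 213, 163 and 225 in fed and 261, 269 and 314 in starved controls (log2 0.50 ± 0.13, adjusted p = 0.00657), and 176, 188 and 169.7 in fed and 230.4, 213 and 274 in starved mutants (0.42 ± 0.13, adjusted p = 0.0144). In both genotypes the starved arrays were above the fed ones, though the call in mutants was lost in the series matrix (log2 0.38, adjusted p = 0.125) and without mutant starved replicate 3 (log2 0.32, adjusted p = 0.0663). Rpt4R (CG7257) had 294, 271 and 311 in fed and 379, 336 and 398 in starved controls (log2 0.34 ± 0.085, adjusted p = 0.00434), and 285, 292 and 269 in fed and 316, 308 and 338 in starved mutants, which did not pass (0.19 ± 0.085, adjusted p = 0.0676). Neither was called between genotypes, but with array weights Rpt4R was called lower in starved mutants than in starved controls (log2 -0.23, adjusted p = 0.0298) and higher in starved than in fed mutants (0.25, adjusted p = 0.0046). In the series matrix the control call of Rpt4R was lost (log2 0.52, adjusted p = 0.0944) and the mutant one passed (0.69, adjusted p = 0.0295).

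**Figure D5:**
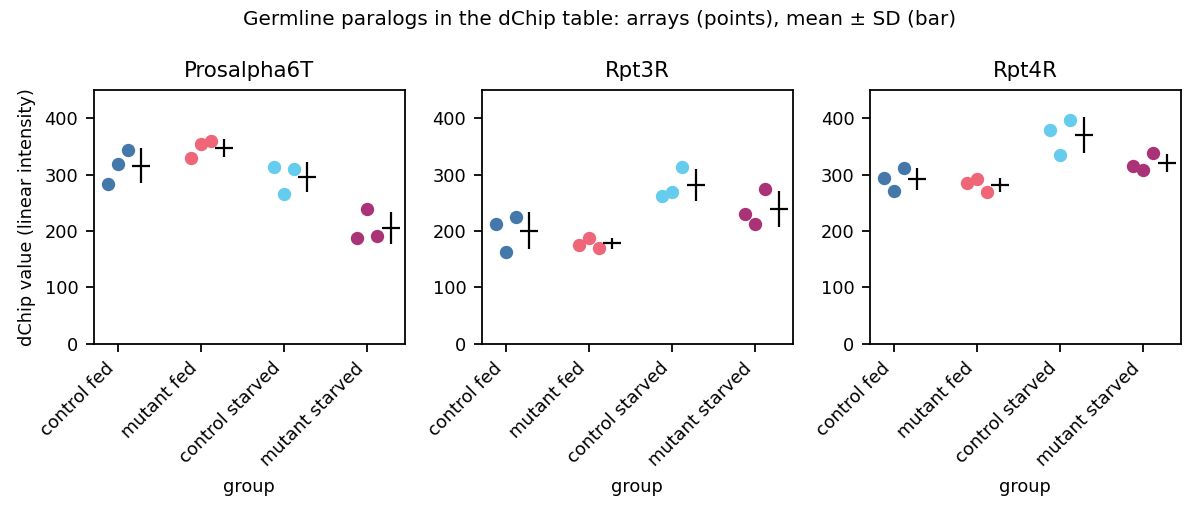
Values (vertical axis, dChip linear intensity) of the 3 germline paralogs in the dChip table in each group (horizontal axis). Coloured points are arrays and black bars the mean ± SD of 3 arrays. Prosalpha6T is lowest in starved mutants, and Rpt3R and Rpt4R are higher in starved than in fed larvae of the same genotype.

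Of the 11 paralogs read from the series matrix, 8 were under the array median of all probe sets in all 12 arrays (medians of 79.1 to 113), and 3, Prosbeta4R2, Prosbeta5R1 and Prosbeta5R2, had a mean under the floor of 16. Rpn12R was the 1 paralog above the median in every array. It had values of 100.5, 83 and 90.0 in fed and 174, 185 and 186 in starved controls, and rose by log2 1.00 (adjusted p = 0.00475), the 1 call among the 11 in that comparison, against 18.3% of the series matrix called higher. Its probe set is of a type that can match several transcripts. In starved mutants Rpn12R had 142, 139.8 and 168 against 150.0, 104 and 80.2 in fed mutants, which did not pass (log2 0.47, adjusted p = 0.106). Prosalpha3T was called higher there, against 19.3% of the series matrix, at values of 22, 13 and 2.3 in fed and 32, 28 and 46 in starved mutants, with 2 of the fed values under the floor. None of the 11 was called lower with starvation, against 10.0% of the series matrix in controls and 12.2% in mutants, with 2 and 0 lower at an unadjusted p under 0.05 in limma. None was called between genotypes by limma, with 2 at an unadjusted p under 0.05 in fed and 0 in starved larvae, against 0.107% called higher and 0.229% lower in fed larvae and 0.996% and 1.01% in starved larvae. Of the 18769 probe sets of the series matrix, 1502 in fed and 2367 in starved larvae had an unadjusted p under 0.05. Prosalpha4T1, Prosalpha4T2, Prosbeta2R1, Prosbeta2R2, Prosbeta4R1 and Rpn13R had single values of 4.3 to 212.5 with no call.

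Male germline markers were read beside these paralogs. Of 21 measured, 8 were called higher and 0 lower in starved controls in the series matrix, and 2 and 0 in starved mutants, against 18.3% and 19.3% of that table called higher. In the dChip table, which holds 13 of them, 6 were called higher and 1 lower in starved controls and 4 and 2 in starved mutants. Over all its probe sets 36.1% were called higher and 32.1% lower in controls, and 37.5% and 38.3% in mutants. Their summed value was 2543 to 3788 in fed controls, 2666 to 3357 in fed mutants, 4902 to 5459 in starved controls and 2779 to 4468 in starved mutants. None of the 21 had a mean under the floor, and the least bright were aly (42.05) and djl (42.35). In starved mutants against starved controls, 0 of the 21 were called in either direction in the series matrix by limma, with 6 at an unadjusted p under 0.05, against 2367 of its 18769 probe sets. Of the 13 with a dChip value 2 were called lower and 0 higher, against 3.70% of all probe sets called lower. Their part in the paralog results was not tested.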

How the data were processed

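Per the file headers, the authors normalized the intensity values of the main table with dChip and kept probe sets with Present calls; the version and the rule are not given in the sources used here. The series matrix holds the authors' deposited linear intensity values for 18769 probe sets besides 183 array controls, and how they were computed is not given in the sources used here. Arrays have no read depth, so precision rests on how many there are.

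The dChip columns were assigned to samples through their names, and all 12 correlated best with their own sample in the other table. Platform symbols were updated by Entrez gene number to RefSeq (7970 probe sets with 1 symbol, 248 with several, 1451 with none), and every member had 1 probe set. The log2 of values, with those under 16 set to 16, entered limma 3.58.1 (R 4.3.3) with the 4 group means as the model (8 residual and 3.12 prior degrees of freedom), 5 contrasts and Benjamini-Hochberg adjustment over the whole table at 0.05. Paralogs missing from the dChip table were tested in a like fit of the series matrix. The code was tested on simulated data.

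Members, gene lists and tests were chosen with earlier results of these data known. Values by array are given for the catalytic subunits, for the largest and smallest starvation change in each ring, the base and the lid, for every subunit called between genotypes and for the dChip paralogs. Of each list up to 4 called genes with the largest change and 9 set factors are named; Rpn2, Rpn12R, Prosalpha3T, rngo and PSMG1 were added after their values were seen. Arrays with the same replicate number correlated at r = -0.40 to 0.28 in their deviations from group means. Arrays of different number were not compared, so this does not decide whether the numbers pair the arrays. The main fit has no replicate term. The alternatives tried were the other table, quantile normalization and median centring, other floors, a filter on dim probe sets, the replicate block, trend and robust variance, array weights, fits of the compared groups alone, the mean over a gene's probe sets, a minimum change of 1.5-fold and the removal of each array.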

Additional observations from a re-analysis of the deposited data

Results flagged for a closer look

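Prosalpha3T, a testis form of Prosalpha3 read from the series matrix, was listed because its starvation responses ran in opposite directions in the genotypes. All starved control values (30.2, 27 and 7) were below the fed control values (32, 47 and 35), and all starved mutant values (32, 28 and 46) were above the fed mutant values (22, 13 and 2.3). The difference between the responses was log2 1.61 (adjusted p = 0.209 in limma), so it did not pass the test, and all 12 values lay under the array medians.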

How the results depend on the processing

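The median falls with starvation kept their direction, and the counts of subunits that fell were within 1.5 times the main counts in every alternative except the minimum change of 1.5-fold, with 17 subunits in controls and 15 in mutants. Calls over all probe sets were not counted at this minimum, so counts at 1.5-fold here and below have no share to be read against. Leaving out 1 array gave 25 to 26 subunits that fell in controls and 23 to 24 in mutants. The median fall in controls was log2 -0.89 in the series matrix and -0.78 with median centring, and in mutants -0.74 with median centring; leaving out 1 array gave -0.75 to -0.61 and -0.65 to -0.58. The 3 subunits higher in starved mutants became 8 with quantile normalization, 6 when the dimmest 40% of probe sets were removed, 5 after median centring, 12 with the compared groups alone, 21 with array weights, 20 with the gene-by-gene weights (added after seeing the data, because the first estimate stopped before convergence), 0 at 1.5-fold and 0 with the replicate block, and 0 to 10 without 1 array, at medians of 0.22 to 0.27. Calls over all probe sets in that comparison, in either direction, were 736 in the main fit and changed as well. They were 783 with quantile normalization, 670 without the dimmest, 762 after median centring and 905 with the compared groups alone. With array weights they were 2439, with the gene-by-gene weights 2364, with the replicate block 610, and without 1 array 329 to 940. In fed larvae 1 was called with either kind of weights and 0 to 2 without 1 array, at medians of 0.061 to 0.22. The median difference between responses was 0.044 to 0.18 without 1 array. The replicate block ended the calls of Rpt3, Rpn11 and Rpn13 between starved genotypes (adjusted p = 0.0552, 0.0653 and 0.0632) and no other call of the 16 subunits and paralogs followed gene by gene. Among the 32 calls of these 16 genes, Prosalpha6T in starved against fed mutants changed sign in the series matrix (log2 0.059, adjusted p = 1). Rpn2, Pomp, PI31, cnc, Rpn12R and Prosalpha3T, also given by array, were not followed in this way. Without the dimmest probe sets the 3 paralogs had no value. The causes were not tested. Values near background limit the paralogs.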

Other observations

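Within groups the standard subunits varied together from array to array. After subtracting each group's mean, the median Pearson correlation over the 12 arrays (8 residual degrees of freedom) was 0.73 for the 66 pairs of core subunits, 0.63 for the 91 pairs of the regulatory particle and 0.59 for the 168 pairs between particles, against 0.02 over all pairs of probe sets. Without control fed replicate 3 these were 0.41, 0.60 and 0.44. Points of a pair share the same arrays and their normalization, and this is a description of these 12 arrays.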
